A study of Mus musculus with 16 samples.

Results

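Basement membrane genes were examined in chondrocytes carrying a gain-of-function allele of Notch2, with and without tumor necrosis factor α (TNFα). The 10 genes encode 3 collagen IV chains (Col4a1, Col4a2 and Col4a5), 4 laminin chains (Lama4, Lamb1, Lamb2 and Lamc1), both nidogens (Nid1 and Nid2) and perlecan (Hspg2). They were picked by symbol, with earlier results of these data known, out of 55414 gene identifiers in the count tables. All 10 were found, each as a single identifier. Because the choice was made on these libraries, the values of the 10 genes are a description and are not independent evidence of a direction.

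A basement membrane is a thin sheet of extracellular matrix built from a network of collagen IV and a network of laminin, with nidogens and perlecan linking the networks. A collagen IV molecule is a trimer of α chains, and the α1 and α2 chains, from Col4a1 and Col4a2, form the most widespread trimer. A laminin is a trimer of an α, a β and a γ chain, and the α chain carries most of the binding to receptors. Cartilage has no basement membrane sheet inside it, but chondrocytes lay down several of these proteins, perlecan above all, in the pericellular matrix that surrounds each cell.

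Chondrocyte-enriched cells came from the epiphyseal cartilage of newborn mice, in a C57BL/6 background, and were sequenced as poly(A) RNA. Control cells were from wild-type littermates. Mutant cells were from heterozygous Notch2tm1.1Ecan mice, in which a substitution in the germline ends NOTCH2 early and removes the PEST domain that directs its degradation, so every cell type of the mouse carried the allele. Treatment lasted 6 h, with PBS as the vehicle and TNFα given at 50 ng/ml, which made 4 groups of 4 libraries labelled as biological replicates, each pooled from males and females. The labels state that serum was withdrawn from the TNFα groups alone, whereas the study's account of the RNA sequencing has vehicle and TNFα cells both without serum. If the labels hold, an effect of TNFα and an effect of serum removal cannot be told apart. The labels do not say whether replicates came from separate litters or cultures, and p-values measure the spread between these libraries.

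Library totals ran from 3439726 to 44237300 counts on genes, with a median of 17062419. The lowest belonged to replicate 4 of the Notch2tm1.1Ecan cells with TNFα, and the next lowest was 12552727. On the first principal component (78.6% of the variance) TNFα libraries fell apart from vehicle libraries. Replicate 4 of the control cells with vehicle lay at -14.8 on it while the other 7 vehicle libraries lay between -58.8 and -56.4, and replicate 4 of the control cells with TNFα lay at 40.9 while the other TNFα libraries lay between 52.5 and 56.3. Heyl, a canonical Notch target gene, was at 0.152 to 0.298 CPM (the count of a gene relative to the scaled library total) in control cells and 1.44 to 2.28 in Notch2tm1.1Ecan cells with vehicle, and at 0.0788 to 0.549 and 1.17 to 1.99 with TNFα, so that by Heyl no library went against its genotype label. Hes1 and Hey1, other such targets, separated the genotypes with vehicle, at 13.2 to 19.7 and 22.8 to 25.8 CPM for Hes1 and 4.23 to 5.47 and 5.97 to 8.34 for Hey1. With TNFα they overlapped, at 2.03 to 5.65 and 3.04 to 5.79 CPM for Hes1 and 2.22 to 3.13 and 1.66 to 3.39 for Hey1. Total Notch2 counts, which do not separate the alleles, were 104 to 151 CPM in control and 137 to 164 in mutant cells with vehicle, which overlap, and 128.6 to 188.2 and 209.5 to 240.5 with TNFα, which do not. The chondrocyte marker Col2a1 was at 37603 ± 1614 CPM (SD, n = 4) in control and 23792 ± 1911 in mutant cells with vehicle, and at 27319 ± 2286 and 14714 ± 863 with TNFα.

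Col4a1 and Col4a2 lie head to head on mouse chromosome 8 and are transcribed away from each other. In the GENCODE M39 annotation of GRCm39, Col4a1 (ENSMUSG00000031502) spans chr8:11248423-11362826 on the minus strand and Col4a2 (ENSMUSG00000031503) spans chr8:11362471-11499287 on the plus strand, and these bounds overlap by 356 bases. The libraries were made with a stranded kit, which marks the strand of each read, but the strand setting used in counting is not given in the sources used here, and how reads within that overlap were assigned is therefore not known. RefSeq promoter windows in GRCm38.p6, from 250 bases before to 50 bases after the gene start, were available for 7 of the 10 genes, and the Col4a1 and Col4a2 windows have 78 bases in common. They are shown because these genes moved together between genotypes, with the shared 78 bases in capitals, each 5′ to 3′ on its own gene's strand. The Col4a1 window is chr8:11312777-11313076 on the minus strand and the Col4a2 window is chr8:11312555-11312854 on the plus strand.
Col4a1: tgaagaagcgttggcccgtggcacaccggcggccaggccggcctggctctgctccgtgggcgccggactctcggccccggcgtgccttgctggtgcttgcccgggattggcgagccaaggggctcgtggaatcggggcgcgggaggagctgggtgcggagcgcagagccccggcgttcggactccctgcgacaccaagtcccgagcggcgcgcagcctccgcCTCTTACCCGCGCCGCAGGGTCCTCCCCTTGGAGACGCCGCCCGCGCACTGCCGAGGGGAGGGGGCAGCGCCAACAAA
Col4a2: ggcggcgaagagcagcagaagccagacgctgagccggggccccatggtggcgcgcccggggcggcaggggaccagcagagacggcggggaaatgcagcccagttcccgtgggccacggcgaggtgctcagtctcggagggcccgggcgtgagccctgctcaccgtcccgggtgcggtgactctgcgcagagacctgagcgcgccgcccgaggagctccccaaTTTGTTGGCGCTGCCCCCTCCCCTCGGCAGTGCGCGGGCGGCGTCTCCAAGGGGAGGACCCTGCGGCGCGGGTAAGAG
The window of Col4a5, the collagen IV gene of the 10 that moved the other way, is chrX:141475169-141475468 on the plus strand of the same build. Its capitals mark TGGGAA, the core letters bound by RBPJκ, the DNA-binding partner of the Notch intracellular domain.
Col4a5: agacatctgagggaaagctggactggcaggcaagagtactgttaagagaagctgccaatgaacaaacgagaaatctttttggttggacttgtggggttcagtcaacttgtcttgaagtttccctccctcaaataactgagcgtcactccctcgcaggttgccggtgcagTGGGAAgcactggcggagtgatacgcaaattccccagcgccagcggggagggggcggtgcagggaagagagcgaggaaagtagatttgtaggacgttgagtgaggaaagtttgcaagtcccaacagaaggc
Searched on both strands, TGGGAA was absent from the Col4a1 and Col4a2 windows and occurred at 1 place in the windows of Col4a5, Hspg2 and Nid1 and at 2 places in that of Lamb1, and 25.6% of all 32817 windows held it. The longer GTGGGAA, which contains it, occurred in the Col4a5 and Hspg2 windows and in 6.39% of all windows. TGACTCA, the AP-1 letters, and the NF-kappaB consensus occurred in none of the 7 windows, against 5.2% and 4.5% of all windows. With shares this low, absence from 7 windows cannot show a depletion. TGGGAA occurred both in windows of genes called higher in mutant cells (Lamb1 and Nid1) and in that of the gene called lower (Col4a5). These matches describe letters in a window and not binding.

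Between genotypes with vehicle, 6 of the 10 genes were called higher in Notch2tm1.1Ecan cells and 1 was called lower, where a call is an edgeR p below 0.05 after adjustment over all genes tested. Over all 19432 genes tested, 6.19% were called higher and 4.35% lower. With TNFα, 7 were higher and 1 was lower, where 5.63% and 4.31% of 19227 genes were called. All 10 genes passed the filter on low counts in every comparison. The median log2 fold change of the 10 was 0.24 with vehicle and 0.57 with TNFα, and that of all genes tested was -0.0020 and -0.0117. RNA was measured in bulk, so more cells of a type and more RNA per cell cannot be told apart.

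TNFα against vehicle in control cells gave 0 genes higher and 1 lower of the 10, where 23.3% of 19338 genes were called higher and 20.9% lower. The same treatment in Notch2tm1.1Ecan cells gave 6 higher and 1 lower, where 22.6% and 21.9% of 19633 genes were called. The difference between these effects, tested as an interaction of genotype and TNFα, was called for 1 of the 10 genes, in the higher direction. Of 21321 genes, 0.267% were called higher and 0.206% lower in that test. The median log2 value of the 10 was 0.06, 0.24 and 0.22 in these comparisons, and that of all genes was 0.0389, 0.0258 and -0.0100. The comparisons share libraries, and the counts are set side by side without a test of their difference.

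**Figure D1:**
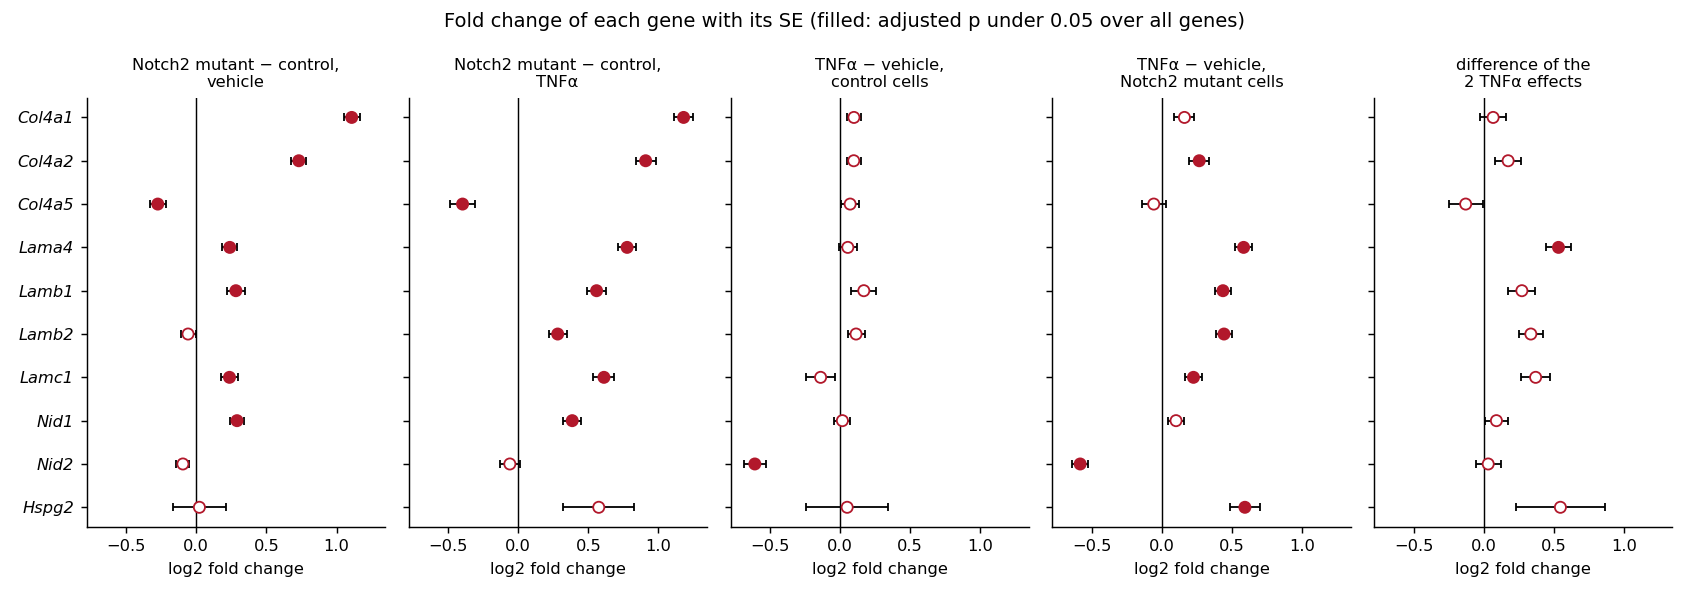
Log2 fold change of each of the 10 genes, with bars of 1 SE, in the genotype comparisons, the TNFα comparisons and the difference of the TNFα effects; filled points are genes called at that threshold. Col4a1 lies farthest to the right in both genotype panels, at 1.11 and 1.18, and Col4a5 lies to the left of 0 in both.

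Col4a1, which encodes the α1 chain of collagen IV, had the highest genotype fold of the 10 genes. In control cells with vehicle its 4 libraries held 454, 433, 425 and 484 CPM, and in Notch2tm1.1Ecan cells with vehicle 1045, 983, 887 and 939. With TNFα the control libraries held 497, 457, 461 and 499 CPM, and the mutant libraries 1100, 1103, 1184 and 908. Every mutant library was above every control library, with or without TNFα. The log2 fold change between genotypes was 1.11 ± 0.057 (SE) with vehicle and 1.18 ± 0.068 with TNFα, which are 2.16-fold and 2.27-fold. The log2 change with TNFα was 0.10 ± 0.051 in control and 0.16 ± 0.071 in mutant cells, neither of them called, and the libraries overlapped in both. The value in mutant cells passed the threshold in 7 of 15 alternative fits, with adjusted p from edgeR's quasi-likelihood test of 0.00126 to 0.0455 in those 7.

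Col4a2, encoding the α2 chain, followed the same order with smaller differences. Its libraries held 496, 486, 483 and 537 CPM in control and 878, 854, 760 and 816 CPM in mutant cells with vehicle. With TNFα they held 560, 504, 505 and 563 CPM in control and 1033, 998, 1103 and 831 CPM in mutant cells. The genotypes did not overlap under either treatment. The log2 fold change was 0.73 ± 0.054 with vehicle and 0.91 ± 0.071 with TNFα. TNFα gave 0.10 ± 0.051 in control cells and 0.27 ± 0.072 in mutant cells, and the second was called although the lowest TNFα library, replicate 4, lay among the vehicle libraries.

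Col4a1 and Col4a2 did not rise in equal measure. Per kb of exon, the ratio of Col4a1 to Col4a2 was 0.862 ± 0.0144 (SD, n = 4) in control and 1.12 ± 0.0174 in mutant cells with vehicle. With TNFα it was 0.864 ± 0.0137 and 1.04 ± 0.0177. The ratio lay between 0.847 and 0.88 in the 8 control libraries and between 1.02 and 1.14 in the 8 mutant libraries, so Col4a1 passed from the lower to the higher of the pair. Together they made up 90.2% ± 0.265 of the collagen IV level per kb in control and 95.5% ± 0.0829 in mutant cells with vehicle, and 90.4% ± 0.555 and 96.3% ± 0.238 with TNFα.

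Col4a5 encodes an α chain of other collagen IV trimers and was the gene lower in mutant cells. Its control libraries held 126, 113, 119 and 131 CPM with vehicle and 125, 121, 119 and 146 with TNFα. The mutant libraries held 107.9, 100.4, 94 and 100.8 CPM with vehicle and 105.5, 96.6, 104.5 and 72.8 with TNFα. Mutant libraries lay below control libraries under both treatments. The log2 fold change was -0.27 ± 0.058 with vehicle and -0.40 ± 0.089 with TNFα. The value of 72.8 came from the shallowest library, where Col4a5 had 264 counts. Per kb, the ratio of Col4a1 to Col4a5 was 4.59 ± 0.143 in control and 11.96 ± 0.275 in mutant cells with vehicle, and 4.70 ± 0.295 and 14.3 ± 1.05 with TNFα.

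**Figure D2:**
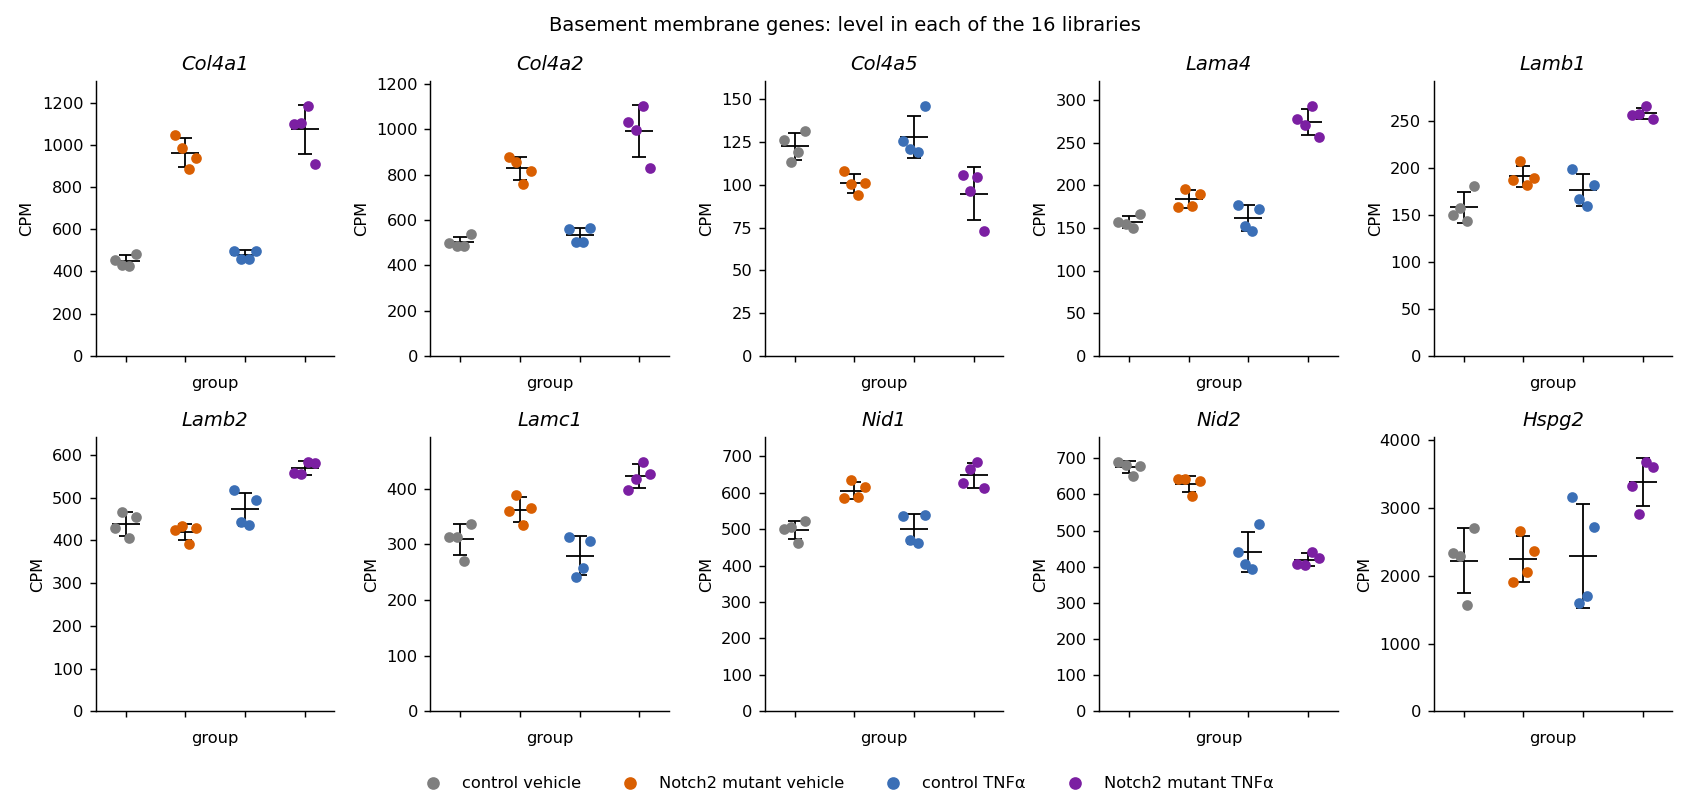
CPM of each of the 10 genes in the 16 libraries; points are libraries in the order of replicates 1 to 4, bars are the mean ± SD of the 4 libraries of a group, and every axis starts at 0. Col4a1 and Col4a2 separate by genotype, Lama4 is highest in mutant cells with TNFα, Nid2 separates by TNFα, and the 4 control libraries with TNFα spread from 1597 to 3164 CPM for Hspg2.

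Lama4, which encodes the laminin α4 chain of vessel walls and mesenchymal tissue, was the gene of the 10 for which the TNFα effects in the genotypes were called different. Its control libraries held 156, 154, 149 and 166 CPM with vehicle and 177, 153, 146 and 172 with TNFα. The mutant libraries held 174, 195, 176 and 190 CPM with vehicle and 278, 270, 293 and 256 with TNFα. The mutant libraries with TNFα stood above all other libraries, and the control libraries with and without TNFα overlapped. In control cells with TNFα, replicates 1 and 4 lay above replicates 2 and 3 for Lama4 and for each other gene of the 10. Any dependence of that shared order on exon length, 15715 annotated bases for Lama4 and 15935 for Hspg2 over all their transcripts, was not tested. The log2 fold change between genotypes was 0.24 ± 0.053 with vehicle and 0.78 ± 0.067 with TNFα. The log2 effect of TNFα was 0.05 ± 0.062 in control and 0.58 ± 0.061 in mutant cells, which differed by 0.53 ± 0.090. That difference was called in the test over all genes, and of the settings tried, including each left-out library, a required log2 difference of 1 was the only one that ended the call.

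Lamb1, encoding the β1 chain, and Lamc1, encoding the γ1 chain shared by most laminins, were also called higher in mutant cells under both treatments. Lamb1 ranged over 144 to 181 CPM in control and 182 to 208 in mutant cells with vehicle, and over 160 to 199 and 252 to 266 with TNFα. Its log2 fold change between genotypes was 0.28 ± 0.065 with vehicle and 0.56 ± 0.066 with TNFα, and in neither did the genotypes overlap. Lamc1 ranged over 271 to 337 CPM in control and 334 to 389 in mutant cells with vehicle, which overlap, and over 242 to 313 and 399 to 449 with TNFα, which do not. Its log2 fold change was 0.24 ± 0.061 with vehicle and 0.61 ± 0.075 with TNFα. With a library left out, the log2 change of Lamc1 with TNFα was -0.2013 to -0.0722 in control cells, not called. In mutant cells it was 0.1884 to 0.2608, called in every such fit. The vehicle call for Lamc1 was lost in 5 of the alternative fits, among them the fit without replicate 1 of the mutant cells with vehicle, with an adjusted p of 0.109. The vehicle call for Lamb1 was lost without that same library, with an adjusted p of 0.0619.

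Lamb2, encoding the β2 chain, was the laminin chain of the 4 not called between genotypes with vehicle. It ranged over 405 to 468 CPM in control and 391 to 434 in mutant cells with vehicle, and over 437 to 517 and 555 to 585 with TNFα. The genotypes overlapped with vehicle and did not overlap with TNFα, and the log2 fold changes were -0.06 ± 0.053 and 0.28 ± 0.065. TNFα raised Lamb2 by 0.44 ± 0.057 and Lamb1 by 0.43 ± 0.059 in mutant cells on the log2 scale. The values in control cells were 0.11 ± 0.061 for Lamb2 and 0.17 ± 0.090 for Lamb1, neither of them called. Per kb, the ratio of Lamb1 to Lamb2 was 0.204 ± 0.0151 in control and 0.259 ± 0.0104 in mutant cells with vehicle, and 0.212 ± 0.00488 and 0.257 ± 0.0077 with TNFα.

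Lama4 and Lama5 made up most of the laminin α chain level. Shares and ratios per kb here rest on annotated exon lengths over all transcripts, 15715 bases for Lama4 and 11448 for Lama5. Lama5, which encodes the α5 chain of most adult basement membranes, is not among the 10 genes. It was at 107 ± 15.5 CPM in control and 98.7 ± 9.78 in mutant cells with vehicle, and at 160 ± 25.3 and 173 ± 10.3 with TNFα. Lama5 rose with TNFα in control cells, with a log2 fold change of 0.59 ± 0.16 (adjusted p = 0.0218 by the edgeR quasi-likelihood F test, Benjamini-Hochberg over all genes), and in mutant cells by 0.81 ± 0.070 (adjusted p = 1.97e-10, the same test). Per kb, Lama4 made up 47.7% ± 2.58 of the summed α chain level in control cells with vehicle and 40.2% ± 1.92 with TNFα. In mutant cells it made up 52.2% ± 1.14 with vehicle and 50.1% ± 1.83 with TNFα. The ratio of Lama4 to Lama5 was 1.08 ± 0.118 and 0.743 ± 0.0547 in control cells and 1.36 ± 0.0596 and 1.16 ± 0.0751 in mutant cells.

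Nid1 encodes nidogen-1, which binds both laminin γ1 and collagen IV. It ranged over 462 to 521 CPM in control and 584 to 635 in mutant cells with vehicle, and over 461 to 538 and 613 to 685 with TNFα. The genotypes did not overlap under either treatment, with log2 fold changes of 0.29 ± 0.050 and 0.39 ± 0.065, while TNFα gave 0.02 ± 0.057 in control and 0.10 ± 0.058 in mutant cells.

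Nid2 encodes nidogen-2, the related protein, and was the gene of the 10 called lower with TNFα, in each genotype. Its vehicle libraries held 691, 680, 651 and 679 CPM in control and 643, 642, 595 and 637 in mutant cells. With TNFα they held 442, 409, 393 and 519 CPM in control and 407, 405, 442 and 424 in mutant cells. All vehicle libraries stood above all TNFα libraries, and the highest TNFα library was replicate 4 of the control cells, which also lay nearest to vehicle on the first principal component. The log2 change with TNFα was -0.61 ± 0.076 in control and -0.58 ± 0.057 in mutant cells, and the difference between them was 0.03 ± 0.089. Between genotypes Nid2 was at -0.10 ± 0.047 with vehicle and -0.06 ± 0.074 with TNFα, neither of them called. The ratio of Nid1 to Nid2 per kb was 0.638 ± 0.0213 in control and 0.834 ± 0.0331 in mutant cells with vehicle, and 0.988 ± 0.0645 and 1.34 ± 0.0706 with TNFα, with no overlap among the 4 groups.

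**Figure D3:**
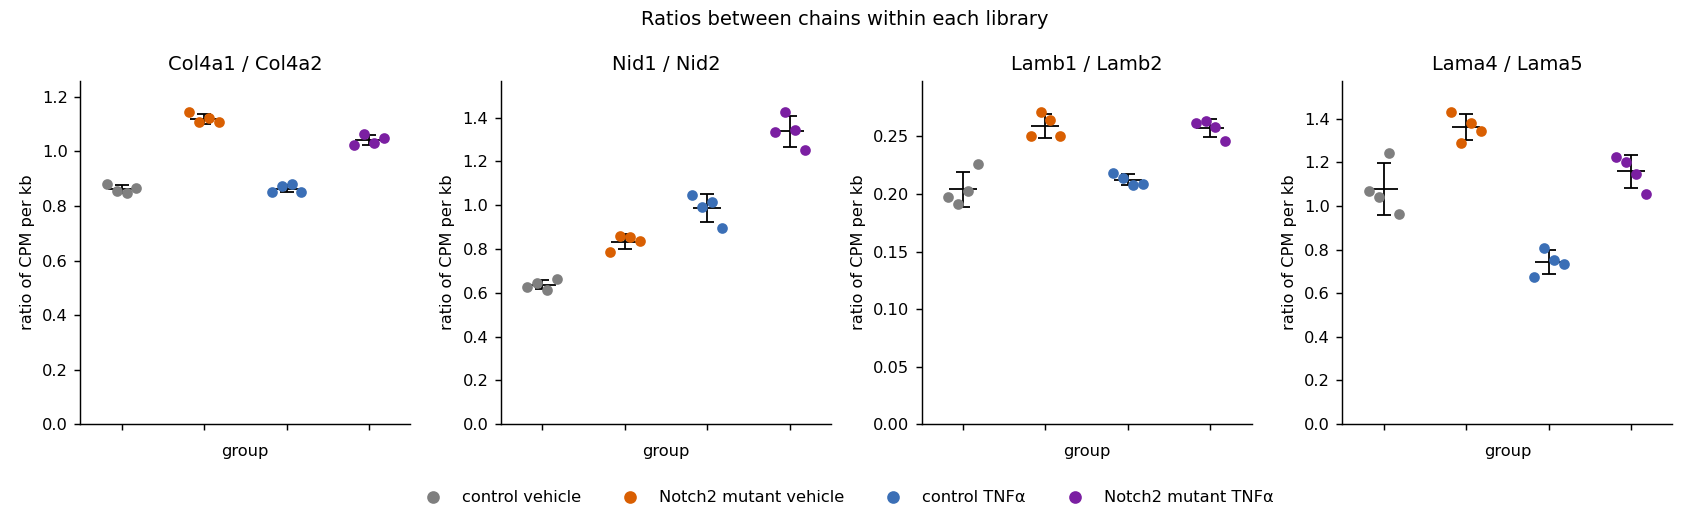
Ratios of CPM per kb of exon within each library for Col4a1 over Col4a2, Nid1 over Nid2, Lamb1 over Lamb2 and Lama4 over Lama5; points are libraries, bars the mean ± SD of 4. Col4a1 over Col4a2 stays under 0.88 in control libraries and above 1.02 in mutant libraries, and Nid1 over Nid2 steps up through the 4 groups from 0.638 to 1.34.

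Hspg2, encoding the heparan sulfate proteoglycan perlecan, had the highest mean level per kb of the 10 genes in every group. Its coefficient of variation between replicates was the highest of the 10 in both vehicle groups (21.3% in control and 14.9% in mutant cells) and in control cells with TNFα (33.6%), but not in mutant cells with TNFα, where it was 10.3% and that of Col4a5 was 16.04%. Its vehicle libraries held 2329, 2287, 1569 and 2701 CPM in control and 1902, 2657, 2060 and 2364 in mutant cells. With TNFα they held 3164, 1597, 1693 and 2710 CPM in control and 3321, 2913, 3680 and 3603 in mutant cells. In mutant cells every TNFα library was above every vehicle library, with a log2 change of 0.59 ± 0.11. In control cells the change was 0.05 ± 0.29, with 2 TNFα libraries at 1597 and 1693 CPM and the other two at 2710 and 3164. The genotype difference with TNFα was 0.57 ± 0.25, not called, and replicate 1 of the control cells lay above replicate 2 of the mutant cells. The log2 difference between the TNFα effects on Hspg2 was 0.5452, the highest of the 10 genes, and was not called. With a library left out it was 0.4063 to 0.7408.

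Levels between genes were compared per kb of exon. The length used is that of all annotated exons of a gene over its transcripts. It can exceed the length of the transcript made in these cells, so orders and ratios between genes depend on the annotation. In control cells with vehicle the order was Hspg2 at 139 CPM per kb, Nid2 at 104, Lamb2 at 72.1, Col4a2 at 69.7, Nid1 at 66.3, Col4a1 at 60.2, Lamc1 at 27.3, Lamb1 at 14.7, Col4a5 at 13.1 and Lama4 at 9.96. Neighbors from Lamb2 to Col4a1 overlapped between libraries, as did Lamb1 and Col4a5 and, at the top, Hspg2 and Nid2. In mutant cells with vehicle Col4a1 at 129 and Col4a2 at 115 CPM per kb came next after Hspg2 at 141, followed by Nid2 at 96.9. There Hspg2 and Col4a1 overlapped between libraries, as did Col4a1 and Col4a2. In mutant cells with TNFα the order began with Hspg2 at 212, Col4a1 at 144, Col4a2 at 138 and Lamb2 at 93.6 CPM per kb and ended with Col4a5 at 10.2.

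The genes most like each member were found by the root mean square difference of centered log2 CPM over the 16 libraries, among 10940 genes with a mean of at least 5 CPM. Nearest to Col4a1 were Col15a1, a basement membrane zone collagen, at 0.141, Tnmd, a tendon and ligament membrane protein, at 0.143 and Apoe, an apolipoprotein, at 0.158. Nearest to Col4a2 were Fbln2 at 0.112, Col14a1 at 0.114 and Col15a1 at 0.119. Lama4 and Lamb1 were close to each other at 0.0933, first in the list for Lama4 and second, after Thbs4 at 0.0901, in that for Lamb1. Nearest to Nid1 was Col1a1, the main collagen of bone and fibrous tissue, at 0.0579, and nearest to Nid2 was Lman1, a cargo receptor for secretion, at 0.060. Nearest to Hspg2 was Lrp1, a large endocytic receptor, at 0.0663.

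Of 10 other collagen IV and laminin chains, 1 was higher and 2 were lower in mutant cells, with vehicle and again with TNFα. Of all genes tested, 6.19% were called higher and 4.35% lower with vehicle, and 5.63% and 4.31% with TNFα. These genotype shares also stand beside the genotype counts of the lists and markers that follow. Their median log2 fold change was -0.26 with vehicle and -0.21 with TNFα. Lama2, the α2 chain of muscle and nerve laminin, was higher by 0.68 ± 0.15 with vehicle (adjusted p = 0.012, edgeR) and by 1.14 ± 0.23 with TNFα (adjusted p = 0.0172, edgeR). Col4a6, an α chain that assembles with the Col4a5 product, was lower by 0.69 ± 0.15 (adjusted p = 0.00281, edgeR) and 0.66 ± 0.16 (adjusted p = 0.00732, edgeR), from a low level of 6.68 ± 1.18 CPM in control cells with vehicle. Lamb3, a β chain of epithelial laminins, was lower by 0.66 ± 0.096 with vehicle (adjusted p = 3.28e-05, edgeR) and by 0.64 ± 0.077 with TNFα (adjusted p = 9.11e-07, edgeR).

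With TNFα, 4 of these 10 chains rose and 1 fell in control cells, and 4 rose and 1 fell in mutant cells. The median log2 change of the list was 0.02 and 0.28, beside 0.0389 and 0.0258 for all genes tested. Over all genes tested, 23.3% and 22.6% were called higher and 20.9% and 21.9% lower with TNFα in control and mutant cells. Those shares also stand beside the TNFα counts of the lists and markers that follow. Lamb3 rose by 0.97 ± 0.072 in control (adjusted p = 4.78e-10, edgeR) and 1.00 ± 0.098 in mutant cells (adjusted p = 2.24e-09, edgeR). Lama3, an α chain of epithelial laminins, fell by 0.50 ± 0.16 (adjusted p = 0.0146, edgeR) and 0.40 ± 0.12 (adjusted p = 0.00768, edgeR). Both were below the chains among the 10 genes, with Lamb3 at 18.8 ± 1.17 and Lama3 at 7.92 ± 1.17 CPM in control cells with vehicle.

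Of 15 other basement membrane proteins, 8 were higher and 1 was lower in mutant cells with vehicle, and 6 were higher and 2 lower with TNFα. Their median log2 fold change was 0.38 and 0.31. Col18a1, which encodes the collagen that releases endostatin, rose with each factor. It was at 129 ± 9.94 CPM in control and 250 ± 12.5 in mutant cells with vehicle, and at 245 ± 14.9 and 487 ± 54.6 with TNFα. Its log2 fold change between genotypes was 0.95 ± 0.058 with vehicle (adjusted p = 6.01e-11, edgeR) and 1.01 ± 0.069 with TNFα (adjusted p = 3.69e-11, edgeR). Col15a1 was higher in mutant cells by 0.84 ± 0.064 (adjusted p = 2.47e-09, edgeR) and 1.05 ± 0.071 (adjusted p = 2.89e-11, edgeR), and Fbln2, a fibulin that binds nidogen and laminin, by 0.73 ± 0.047 (adjusted p = 1.41e-10, edgeR) and 0.89 ± 0.062 (adjusted p = 5.17e-11, edgeR). Tinagl1, a laminin-binding matricellular protein, was lower in mutant cells by 0.73 ± 0.061 (adjusted p = 1.07e-08, edgeR) and 0.84 ± 0.079 (adjusted p = 1.25e-08, edgeR).

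With TNFα, 7 of these 15 rose and 3 fell in control cells, and 7 rose and 3 fell in mutant cells, with medians of 0.24 and 0.11. Agrn, which encodes agrin, a laminin-binding proteoglycan, rose by 1.18 ± 0.094 in control (adjusted p = 2.81e-06, edgeR) and 1.41 ± 0.058 in mutant cells (adjusted p = 2.25e-17, edgeR). Tinagl1 fell by 0.78 ± 0.064 (adjusted p = 3.77e-09, edgeR) and 0.90 ± 0.074 (adjusted p = 6.75e-11, edgeR). Ntn4, encoding netrin-4, which binds laminin γ1 and opens laminin networks, fell by 0.91 ± 0.090 in control (adjusted p = 1.52e-07, edgeR) and 1.45 ± 0.085 in mutant cells (adjusted p = 5.55e-14, edgeR). The difference between its TNFα effects was -0.54 ± 0.13 (adjusted p = 0.0387, edgeR), the only such difference called among the 43 genes of the 4 lists, and it was not called in 13 of the 23 alternatives tried apart from a fold requirement.

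**Figure D4:**
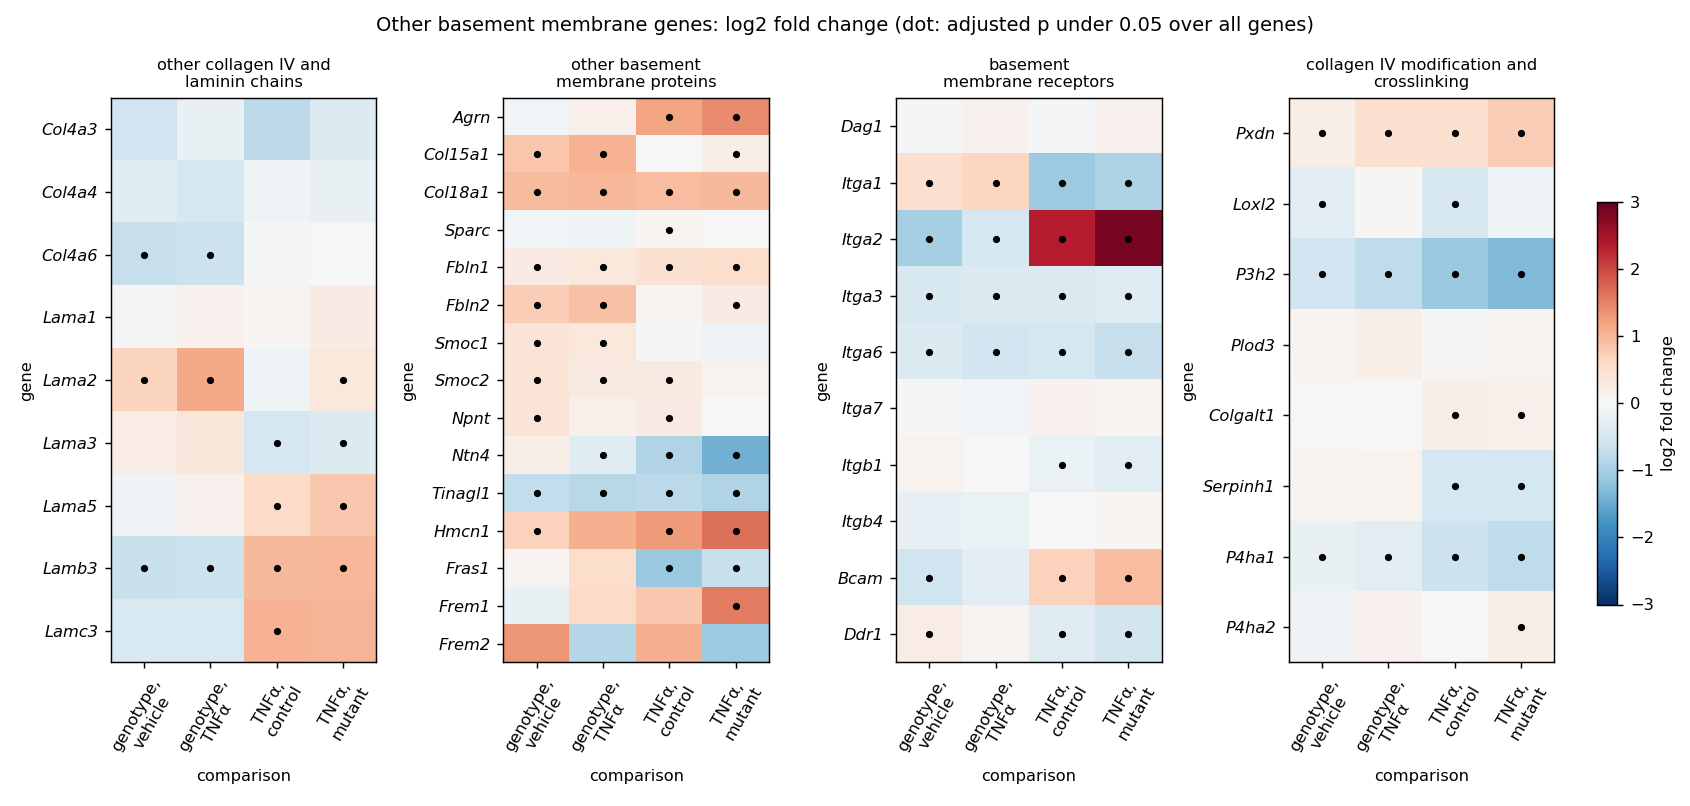
Log2 fold change of 42 of the 43 other basement membrane genes in 4 lists, for genotype with vehicle, genotype with TNFα, TNFα in control cells and TNFα in mutant cells; red is higher, blue is lower, and a dot marks a called gene. Col18a1 is red in all 4 columns, Tinagl1 and P3h2 are blue in all 4, and Itga2 has the strongest red, at 2.37 and 2.84 with TNFα.

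Receptors for these proteins moved in both directions. Of 10 receptor genes, 2 were higher and 4 lower in mutant cells with vehicle, and 1 was higher and 3 were lower with TNFα, with medians of -0.15 and -0.13. Itga1, the α1 integrin subunit of a collagen IV receptor, was higher by 0.51 ± 0.092 (adjusted p = 0.00303, edgeR) and 0.64 ± 0.094 (adjusted p = 9.74e-05, edgeR). Itga6 and Itga3, α subunits of laminin-binding integrins, were lower with vehicle by 0.41 ± 0.061 (adjusted p = 3.7e-05, edgeR) and 0.48 ± 0.056 (adjusted p = 1.92e-06, edgeR). TNFα raised 2 of the 10 and lowered 5 in each genotype, with a median log2 change of -0.13 in both. Of all genes tested, 23.3% and 22.6% were called higher and 20.9% and 21.9% lower in control and mutant cells. Itga2, the α2 subunit of another collagen receptor, rose by 2.37 ± 0.29 in control (adjusted p = 0.000654, edgeR) and 2.84 ± 0.12 in mutant cells (adjusted p = 6.38e-17, edgeR), while Itga1 fell by 1.09 ± 0.12 (adjusted p = 0.000118, edgeR) and 0.96 ± 0.083 (adjusted p = 2.18e-09, edgeR).

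Of 8 genes for enzymes and chaperones that modify or crosslink collagen IV, 1 was higher and 3 were lower in mutant cells with vehicle, and 1 was higher and 2 were lower with TNFα, with medians of -0.04 and 0.07. Pxdn, encoding peroxidasin, which forms the sulfilimine crosslinks of collagen IV, was higher by 0.20 ± 0.054 (adjusted p = 0.017, edgeR) and 0.48 ± 0.064 (adjusted p = 4.96e-06, edgeR). P3h2, a prolyl 3-hydroxylase of collagen IV, was lower by 0.57 ± 0.061 (adjusted p = 4.25e-07, edgeR) and 0.77 ± 0.11 (adjusted p = 0.000134, edgeR). With TNFα, 2 rose and 4 fell in control cells and 3 rose and 3 fell in mutant cells, with medians of -0.24 and -0.01. Pxdn rose by 0.48 ± 0.059 in control (adjusted p = 1.04e-06, edgeR) and 0.74 ± 0.058 in mutant cells (adjusted p = 2.52e-11, edgeR), and P3h2 fell by 1.12 ± 0.12 (adjusted p = 6.37e-05, edgeR) and 1.32 ± 0.076 (adjusted p = 3.49e-14, edgeR). Serpinh1, the collagen chaperone HSP47, fell with TNFα by 0.54 ± 0.038 (adjusted p = 8.92e-10, edgeR) and 0.53 ± 0.056 (adjusted p = 7.72e-09, edgeR).

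Marker genes of several cell types moved with genotype beside the 10 genes. All 10 chondrocyte markers were lower in mutant cells with vehicle and with TNFα, and their summed level was 45705 to 49857 CPM in control and 28937 to 34012 in mutant cells with vehicle, and 33961 to 39906 and 18532 to 20898 with TNFα. Of 8 endothelial markers, 5 were higher in mutant cells with vehicle and 3 with TNFα, and their summed level was 8.57 to 10.6 and 18.8 to 22.7 CPM with vehicle and 11.5 to 14.2 and 20 to 27.6 with TNFα. The most abundant of them was Tek at 5.68 ± 0.454 and 12.4 ± 1.62 CPM with vehicle, while Pecam1 was at 0.808 ± 0.272 and 1.71 ± 0.433. Of 8 smooth muscle and pericyte markers, 6 and 5 were higher, with summed levels of 2552 to 2814 and 4385 to 4996 CPM with vehicle and 1571 to 1870 and 2617 to 2838 with TNFα. Of 6 macrophage markers, 5 and 6 were higher, with summed levels of 60.8 to 66.0 and 108 to 125 CPM with vehicle and 69.5 to 85.3 and 145 to 162 with TNFα.

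Of 8 fibroblast and perichondrium markers 4 were higher and 2 lower with vehicle and 5 and 1 with TNFα, with summed levels of 31715 to 34671 CPM in control and 36162 to 38814 in mutant cells with vehicle, and 31035 to 34061 and 34725 to 42624 with TNFα. Of 6 skeletal muscle markers, of which 5 were tested, 2 were called between genotypes with vehicle, both higher in mutant cells, and 0 with TNFα, and their summed level was 19.3 to 24.2 CPM in control and 29.5 to 34.4 in mutant cells with vehicle, without overlap, and 6.76 to 15.1 and 13.98 to 33.4 with TNFα, which overlap. Schwann cell markers, of which 0 were called between genotypes, summed to 4.11 to 5.42 and 3.49 to 4.88 CPM with vehicle and 5.85 to 8.51 and 6.22 to 8.6 with TNFα. Epithelial markers, of which 0 were called between genotypes, summed to 0.755 to 2.92 CPM over all libraries. Of the epithelial markers, Krt8 and Cldn4 had at most 3 counts in every library, and Cldn5 among the endothelial markers had at most 3 counts in every control library with vehicle. With TNFα, 9 of the 10 chondrocyte markers fell in each genotype, 6 of the 8 smooth muscle and pericyte markers fell and 1 rose in each, 1 endothelial marker rose in control and 0 in mutant cells, and 2 macrophage markers rose in control and 5 in mutant cells, with 1 falling in each. The part of these marker genes in the differences of the 10 genes was not tested.

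With each library left out in turn, the number of the 10 genes called between genotypes was 5 to 7 with vehicle and 8 with TNFα. It was 7 without replicate 4 of the control cells with vehicle and 8 without replicate 4 of either TNFα group. In control cells given TNFα, leaving out replicate 4 of the vehicle group raised the number called from 1 to 4, by adding Col4a1 at a log2 change of 0.13, Col4a2 at 0.13 and Lamb1 at 0.24. Leaving out the shallow replicate 4 of the mutant cells with TNFα added Col4a1 to the genes that rose with TNFα in mutant cells, at a log2 change of 0.23 in place of 0.16. The genotype count with vehicle was 5 without replicate 1 of the mutant cells. The share over all genes was not taken for the fits with a library left out.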

How the data were processed

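RNA sequencing of 16 libraries was analyzed. The deposited values are raw gene counts, made by the authors with Trimmomatic 0.39, HISAT2 2.2.1 and htseq-count 0.11.0 on GRCm39 with Ensembl release 105 according to the study's methods. The submitters' processing notes list HISAT2 2.1.0 and GRCm38 instead, and gene names here do not depend on which applies. The strand setting of the counting is not given in the sources used here. The 5 entries that name no gene held 8.81% to 12.1% of the counts and were left out. Symbols came from GENCODE M39, which lacked 665 of the 55414 identifiers, with 0.0182% of the counts.

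Each comparison was fitted to its own groups in R 4.3.3 with edgeR 4.0.16 (TMM scaling, quasi-likelihood F test) over genes with at least 10 counts summed over the libraries in the fit. The interaction was fitted to all 16 libraries. P-values were adjusted by the Benjamini-Hochberg method over all genes tested, with a threshold of 0.05. The SE of a log2 fold change was its absolute value divided by the square root of the quasi-likelihood F statistic. CPM used TMM factors over all 16 libraries. A level per kb was divided by the summed exon length in M39, with the exons of all transcripts of a gene merged. The 10 genes, the other gene lists and the tests were chosen with earlier results of these data known. Named genes are the 10 in every comparison, from the other lists at most the 4 called genes with the highest fold in each direction, list and comparison (of which a subset, chosen after their values were seen, is described), marker genes with their summed levels, and the 3 genes most like a member over the libraries. The values of 1 gene of the other lists are counted but not reported here. Alternatives were DESeq2 1.42.0, RLE scaling, other filters and thresholds, a fold requirement, a shared fit, 1 surrogate variable (sva 3.50.0), a replicate block and left-out libraries. Replicates of a group differed by more than counting noise (chi-square per degree of freedom of 2.14 to 16). That cannot show whether they came from separate cultures, and libraries were counted as replicates as labelled. The fits were tested on simulated counts with the same spread for every gene and log2 changes of 1 in either direction. That does not cover smaller changes or genes with a wider spread. The lowest count of any of the 10 genes was 264, and precision is set by the spread between libraries.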

Additional observations from a re-analysis of the deposited data

Results flagged for a closer look

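Nid2 stood out within 1 group. Replicate 3 of the Notch2 mutant cells with vehicle held 595.3 CPM while the other libraries of that group held 636.6 to 642.8 CPM, and its gap of 0.869 of the group's range was above Dixon's 95% critical value for 4 libraries. The 10 genes in 4 groups gave 40 such tests, and chance alone passes about 1 in 20 of them.

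Lama4 responded to TNFα differently in the genotypes. The log2 difference of the TNFα effects was 0.5316, with an adjusted p of 0.001085 in the edgeR interaction test over all genes. Lama4 is among genes that were chosen with results of these data in view. All 4 mutant libraries with TNFα were above the other 12.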

How the results depend on the processing

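Counts below are of the 10 genes called at an adjusted p under 0.05, and the cause of a change was not tested. Shares over all genes were taken in the main fits only. The counts under other settings therefore cannot be set against all genes. A required log2 change of 1 left 1 gene between genotypes with vehicle, 1 with TNFα, and 0 for TNFα in control cells, TNFα in mutant cells and the interaction. For TNFα in control cells the count of 1 became 3 with no filter, 2 with the replicate block and 3 without both control libraries numbered 4. With no filter the added genes were Lamb1, higher at 0.1544, and Lamc1, lower at -0.1537 (adjusted p = 0.0202, edgeR). For the interaction the count of 1 became 2 with DESeq2, 2 with RLE scaling, 3 with no filter, 2 without both control libraries numbered 4 and 2 at an adjusted p under 0.1. The added gene was Lamb2 in each of these (adjusted p = 0.0153 with DESeq2), joined by Lamc1 with no filter. With each library left out in turn, counts were 5 to 7 for genotype with vehicle, 8 to 8 for genotype with TNFα, 1 to 4 for TNFα in control cells, 7 to 8 for TNFα in mutant cells and 1 to 3 for the interaction. For TNFα in mutant cells the count of 7 became 8, by adding Col4a1, with filterByExpr (adjusted p = 0.0343), no filter (0.0263), the fit to all 16 libraries (0.0455) and 1 surrogate variable (0.0242), and without replicate 1 of the mutant vehicle group (0.00288) or replicate 4 of the mutant TNFα group (0.00126). In fits that leave out a library, the remaining 3 of its group carry its spread. The shallowest library held 3439726 counts, of which 264 were of Col4a5.

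Directions that turned were all of values not called. Hspg2 between genotypes with vehicle was -0.0337 with 1 surrogate variable and -0.1121 to 0.1222 with a library left out, and with TNFα in control cells -0.1491 to 0.1961. With a library left out, Nid1 was -0.0299 to 0.0578 and Col4a5 -0.0083 to 0.1076 for TNFα in control cells, Col4a5 was -0.1094 to 0.0227 for TNFα in mutant cells, Nid2 was -0.1248 to 0.0137 between genotypes with TNFα, and the Nid2 interaction was -0.0209 to 0.1185.

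Same-numbered libraries deviated together with correlations of -0.178 to 0.12, and no comparison had every pair above 0.1. Between vehicle and TNFα in mutant cells every such correlation was positive, at 0.00619 to 0.12. Correlations this weak, from so few libraries, cannot decide whether replicate numbers mark shared litters or cultures. The replicate block gave 2 calls for TNFα in control cells, adding Lamb1 (adjusted p = 0.0422), and 8 in mutant cells, adding Col4a1 (adjusted p = 0.0268), and changed no other call of the 10 genes.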
